A study of Mus musculus with 33 samples.

Results

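Of 30735 genomic regions bound by Sox2 in both replicates on day 2 of reprogramming, 21135 (68.8%) carried no peak of H3K27 acetylation on day 2 or on day 0. These 21135 regions are the subject here. They were chosen by measured values: the deposited peaks of the 2 Sox2 samples were merged where they shared a base, merged regions hit by a peak of each replicate were kept, and a region entered the set when it shared not even 1 bp with a peak of either H3K27ac sample. The remaining 9600 Sox2 regions overlapped an H3K27ac peak on day 2 only (5248 regions), on both days (2872) or on day 0 only (1480). The Sox2 and H3K27ac values below come from the same peak lists that made the choice, so they are given as a description. The Klf4 peaks were not used in it.

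The study followed mouse embryonic fibroblasts (MEFs) that were being reprogrammed with Sox2, Klf4 and Myc (SKM). The day 2 samples came from SKM secondary MEFs kept with doxycycline in mouse ES medium for 2 days, and comprised 2 Sox2 ChIP samples, 2 Klf4 ChIP samples and 1 H3K27ac ChIP sample. The day 0 H3K27ac sample came from OG2 MEFs, grown in DMEM with 10% FBS, so line, medium and day cannot be told apart in any comparison of the H3K27ac samples. OG2 mice carry a reporter of Pou5f1 expression. The labels do not state the transgene alleles, the age or sex of the embryos, or whether cells were pooled. For both Klf4 samples the antibody given is one against Sox2. They are reported under their titles, and whether their peaks came from Klf4 or from Sox2 cannot be told apart from the labels.

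Sox2 is a transcription factor of the HMG box family that binds DNA through the minor groove and bends it. It can bind sites wrapped in nucleosomes, and for this it is called a pioneer factor. It keeps embryonic stem cells and neural progenitors in their state. Klf4 is a zinc finger factor that binds GC-rich sites, and it is used beside Sox2 and Myc in reprogramming. H3K27ac, acetylation of lysine 27 of histone H3, is placed by p300 and CBP and marks active promoters and enhancers. The mark sits on nucleosomes, so at an active element it is often strongest beside the bound site and weaker on it.

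The RNA libraries of the same culture scheme, all labelled SKM secondary MEF, show the state of the cells. Sox2 mRNA stood at 689 and 966 CPM (counts scaled to the library total) in the 2 day 2 libraries, against 5.88 and 3.65 CPM in the 2 day 0 libraries. Klf4 mRNA stood at 1164 and 1194 CPM on day 2, against 42.5 and 39.5 CPM on day 0. The summed level of 18 mesenchymal genes was 1123 and 1709 CPM on day 2, against 41076 and 41777 CPM on day 0, and 1 of the 18, Zeb1, was at 0 in every library. Lower fractions of fibroblasts and less RNA per cell cannot be told apart in such bulk samples. Summed markers of other cell types stood at 23.1 and 12.7 CPM on day 2, against 198 and 326 CPM on day 0, for 7 macrophage genes. They stood at 3.35 and 11.5 CPM, against 4.32 and 6.90 CPM, for 5 endothelial genes, and at 401 and 663 CPM, against 26.0 and 112 CPM, for 8 keratinocyte genes. Single genes made up much of these sums, and the genes of a list did not move together. Of the keratinocyte genes, Perp alone stood at 306 and 471 CPM, against 18.0 and 96.3 CPM, whereas Trp63 fell to 0 and 0.0497 CPM from 1.09 and 0.152 CPM. Of the endothelial genes, Tek stood at 2.70 and 10.8 CPM, against 1.67 and 1.88 CPM, whereas Kdr fell to 0.0540 and 0.149 CPM from 2.08 and 4.11 CPM. The part of any of these cells in the ChIP peaks was not tested.

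Fold enrichment, the measure of Sox2 signal here, is the height of a peak over its local background as the authors' peak caller gave it. The regions without H3K27ac had a median Sox2 fold of 5.14 in replicate 1 (quartiles 4.44 and 6.10, range 1.87 to 12.3). In replicate 2 the median was 5.78 (quartiles 4.87 and 7.003, range 1.88 to 17.2). The other Sox2 regions had medians of 5.46 and 5.95 in the 2 replicates. The highest medians, 5.78 and 6.48, belonged to the regions with H3K27ac on day 2 only. Regions with the mark on both days stood at 5.23 and 5.60, and those with it on day 0 only at 5.08 and 5.49. The regions without the mark thus sat in the middle of the range of Sox2 enrichment, with much overlap between the classes. They were also slightly narrower, with a median of 379 bp (quartiles 315 and 469) against 428 bp for the other regions, and together covered 8.61 Mb of the genome.

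The summits of the 2 Sox2 replicates lay a median of 37 bp apart, and in 12948 regions (61.3%) they were under 50 bp apart. The rule limits this distance, since it kept only narrow merged regions hit by both replicates. The log2 fold in replicate 1 followed that in replicate 2 weakly, with Pearson's r of 0.28 and Spearman's rho of 0.28 over the 21135 regions. These points share 2 libraries, and both lists were already held to called peaks, so the coefficients only describe the regions. Replicate 2 had the higher fold in 13791 regions (65.3%). The q value that the authors' caller gave reached a −log10 of at least 5 in both replicates in 10649 regions (50.4%), and 307 regions exceeded a fold of 8 in both.

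Although no region of the set touches an H3K27ac peak, many lay right beside one on day 2. A day 2 peak stood less than 500 bp away from 3829 regions (18.1%, 95% exact binomial interval 17.6 to 18.6%), and a day 0 peak from 554 regions (2.62%, 2.41 to 2.85%). The intervals cover counting error only. The label of a region without H3K27ac therefore means no called peak on the Sox2 region itself, and for these 3829 regions it does not mean a surrounding without the mark. Within 50 bp there was a day 2 peak for 1627 regions (7.70%), against a day 0 peak for 83 (0.393%). Within 1 kb the counts were 4068 (19.2%) for day 2 and 988 (4.67%) for day 0. Day 2 thus added few regions between 500 bp and 1 kb, whereas the day 0 share went on growing with the distance. Farther out the days came together, with a day 2 peak within 50 kb of 13491 regions (63.8%) and a day 0 peak within 50 kb of 14087 (66.7%). The median gap was 26.6 kb to day 2 peaks and 25.1 kb to day 0 peaks, while the 10th percentiles were 69 bp for day 2 and 2507 bp for day 0. With 1 H3K27ac sample per day, the difference between the days has no replicate check and was not tested.

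**Figure D1:**
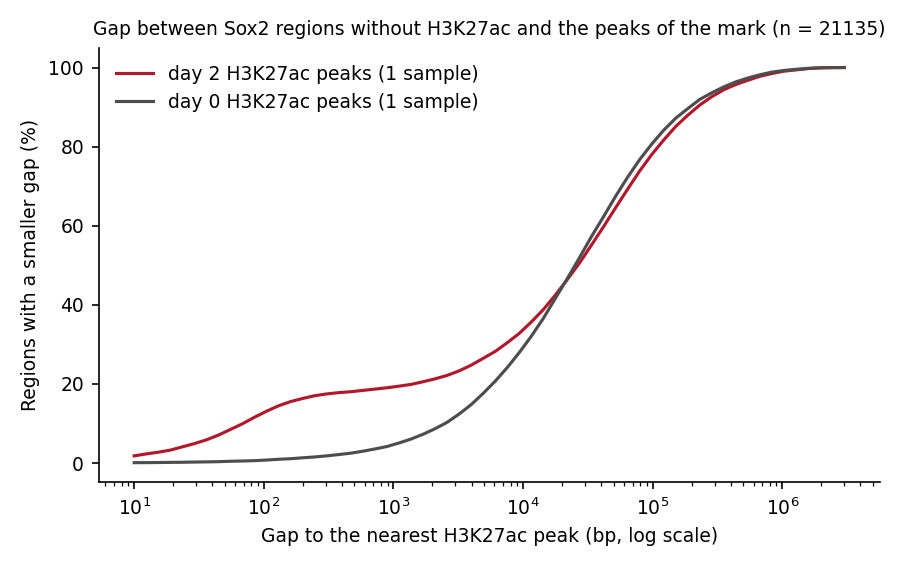
Cumulative share of the 21135 Sox2 regions without H3K27ac (vertical axis, %) whose gap to the nearest H3K27ac peak is smaller than the value on the horizontal axis (bp, log scale), for the day 2 and the day 0 sample. The day 2 line stands at 18.1% at 500 bp, where the day 0 line stands at 2.62%, and from about 10 kb on the lines run close together.

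The H3K27ac lists differed in ways that bear on these shares. The day 2 list held 42025 peaks of median width 415 bp that covered 24.0 Mb, and the day 0 list held 63795 peaks of median width 517 bp that covered 58.3 Mb. The list with fewer and narrower peaks was the one found more often beside these regions. A wider peak can reach a region and so remove it from the set, which can lower the share beside the wider day 0 peaks. With the day 0 list held to as many peaks as the day 2 list, by q, the shares within 500 bp were 18.3% for day 2 and 1.97% for day 0. Peak width was not matched there. How much the width and number of the peaks set the gaps was otherwise not tested.

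A profile of peak coverage around the middle of the regions shows where the day 2 peaks lay. By the rule, coverage at the midpoint was 0% on both days. It reached 9.03% at 400 bp to the left and 9.37% at 400 bp to the right for day 2 peaks, against 0.700% and 0.691% at the same places for day 0 peaks. At 1 kb to the left and right, day 2 coverage was down to 1.4999% and 1.60%, against 1.31% and 1.23% for day 0, and at 5 kb it was 1.55% and 1.23%, against 3.05% and 2.74%. Day 2 peaks therefore formed a narrow pair of shoulders around these regions that the day 0 peaks lacked. The shoulders were not particular to the set: around the 1480 regions with H3K27ac on day 0 only, which also have no day 2 peak on them by the rule, day 2 peaks covered 25.9% of the positions 400 bp to the left and 23.5% of those to the right. Sox2 regions that did overlap H3K27ac on both days had a dip at the same place on day 2. There, day 2 peaks covered 22.8% of the midpoints and 77.5% of the positions 400 bp to the left, while day 0 peaks covered 79.9% of the midpoints. The regions with H3K27ac on day 2 only had a peak over the midpoint in 14.7% (773 of 5248), and in 91.5% of them the overlap took up under 50% of the region.

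**Figure D2:**
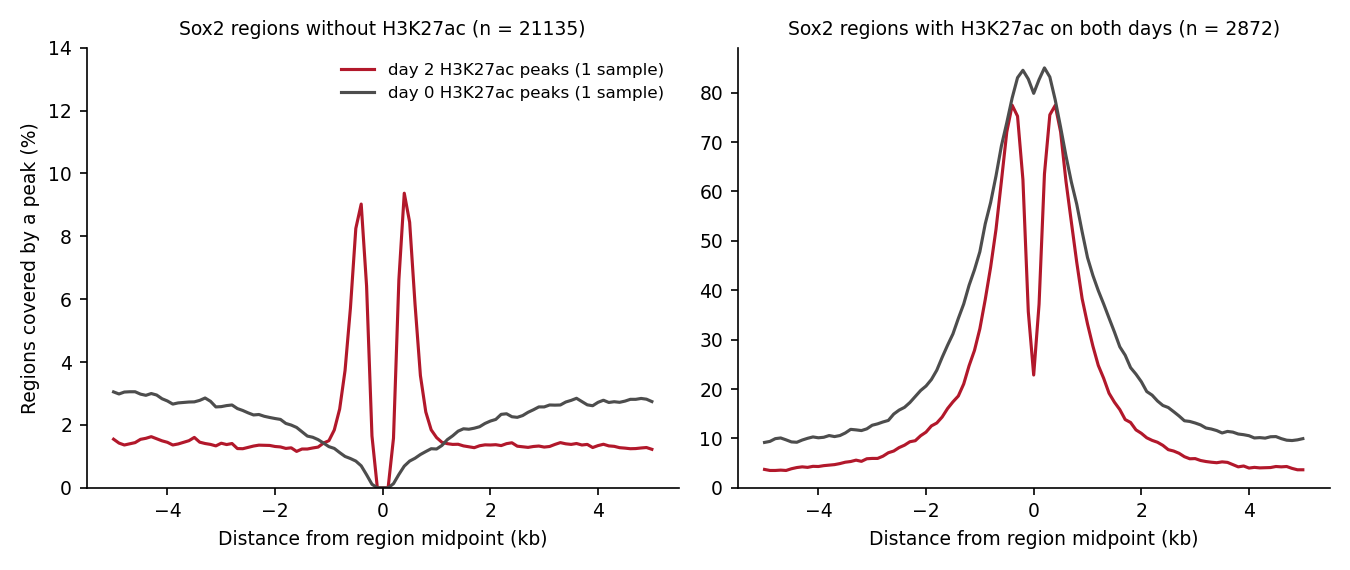
Share of regions covered by an H3K27ac peak (vertical axes, %, on different scales) at each distance from the region midpoint (horizontal axes, kb), for 21135 Sox2 regions without H3K27ac on the left and 2872 with it on both days on the right. On the left, day 2 peaks form shoulders of 9.03% and 9.37% at 400 bp on either side, and on the right the day 2 line dips to 22.8% at the midpoint where the day 0 line stands at 79.9%.

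Of the 3829 regions beside a day 2 peak, 908 (23.7%) had one within 500 bp on both sides, 1427 on the left only and 1494 on the right only. The gap was short, with a median of 60 bp (quartiles 27 and 114 bp). The 554 regions beside a day 0 peak had a median gap of 197 bp, and 26 of them were flanked on both sides. The sets of regions beside a peak of each day overlapped in 208 regions (0.984% of all). Of the regions beside a day 2 peak, 5.43% were also beside a day 0 peak, against 2.62% of the whole set. Of those beside a day 0 peak, 37.5% were also beside a day 2 peak, against 18.1% of the whole set. A further 16960 regions (80.2%) had no peak within 500 bp on either day.

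The regions beside a day 2 peak lay nearer to day 0 peaks than the set as a whole. A day 0 peak lay within 5 kb of 986 of the 3829 (25.8%), against 17.8% of the whole set, and the median distance to the nearest one was 15.1 kb, against 25.1 kb. The nearest day 2 peaks of the 3829 regions were 3771 different peaks, 8.97% of the day 2 list. They were weaker and narrower than the rest of that list, with a median H3K27ac fold of 5.20 against 6.76 and a median width of 299 bp against 434 bp. That rest includes the farther peak of regions flanked on both sides. The rule favours narrow neighbours, since a wider peak at the same place could have reached the region and removed it. How much this sets the difference was not tested. A day 0 peak hit the nearest day 2 peak of 164 of these regions (4.28%), against 50.4% of all day 2 peaks. The rule itself lowers the share of 4.28%, since it removed every region that a day 0 peak reached.

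Around the threshold of the rule, regions just inside and just outside were alike in Sox2 signal. The 1627 regions of the set with a gap under 50 bp had median Sox2 folds of 5.68 and 6.39 in replicates 1 and 2 and a median width of 394 bp. The 1802 regions with H3K27ac on day 2 only whose overlap was 50 bp or less, which fell just outside, had 5.83 and 6.48 and a width of 406 bp. Regions of the set with a gap from 50 to below 500 bp (2202 regions) stood at 5.46 and 6.12. Those with no day 2 peak within 500 bp (17306 regions) stood at 5.12 and 5.71.

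Stronger Sox2 regions were less often without H3K27ac and, when without it, more often beside a day 2 peak. When all 30735 Sox2 regions were cut into 10 bins of nearly equal size by the geometric mean of both Sox2 folds, the share without H3K27ac was 73.3% in the lowest bin and 55.9% in the highest. The share with the mark on day 2 only ran the other way, with 10.6% in the lowest bin and 34.6% in the highest. The other classes did not rise: both days had 9.59% in the lowest bin and 7.16% in the highest, and day 0 only 6.50% and 2.37%. Most of the fall in the share without H3K27ac lay in the higher bins, since bin 5 still had 72.2%. Within the set, a day 2 peak within 500 bp was found for 10.96% of the regions in the lowest bin and 30.7% in the highest. For day 0 peaks the same shares were 3.55% and 1.81%. Regions that were both free of H3K27ac and at least 500 bp from a day 2 peak made up 65.3% of the lowest bin and 38.7% of the highest. Each Sox2 replicate on its own gave the same order, with 74.0% of regions without H3K27ac in the lowest bin and 55.3% in the highest by replicate 1, and 70.2% and 59.6% by replicate 2. Region width was not held equal across the bins, and a wider region can more easily share a base with a peak. The regions with the mark on day 2 only had a median width of 468 bp, against 379 bp in the set. The part of width in these shares was not tested.

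**Figure D3:**
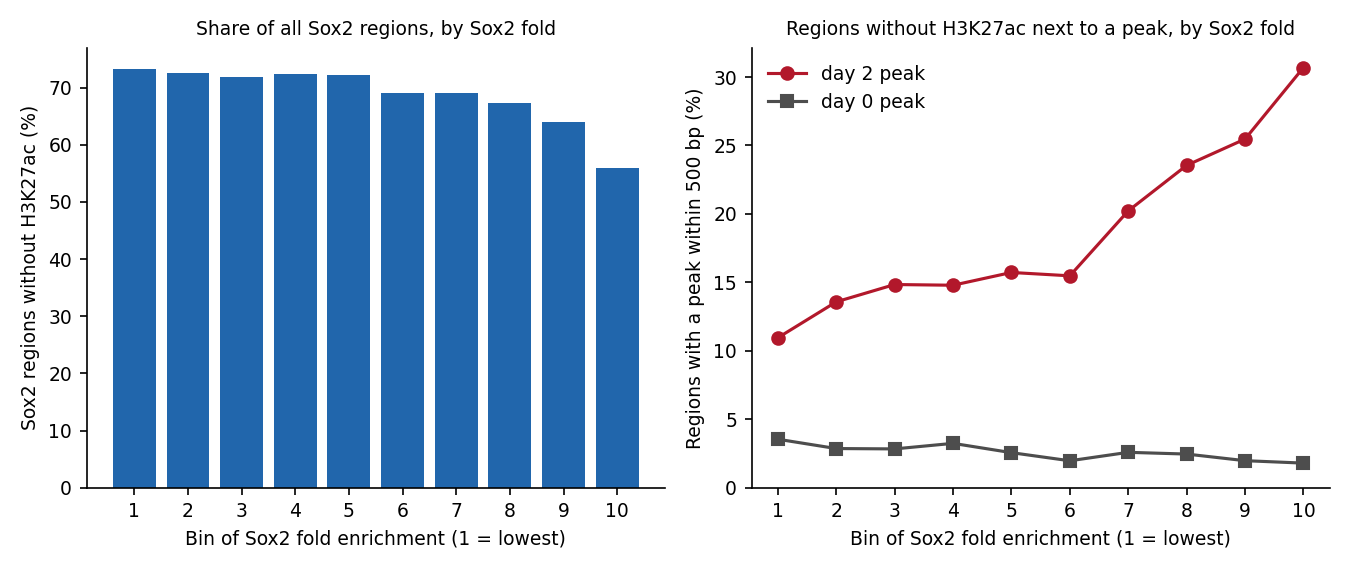
Left, the share of all Sox2 regions that carried no H3K27ac (%) in 10 bins of the mean Sox2 fold enrichment, from 73.3% in the lowest to 55.9% in the highest bin. Right, the share of regions without H3K27ac (%) with a day 2 or day 0 peak within 500 bp in the same bins, which ends at 30.7% for day 2 and 1.81% for day 0.

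Klf4 peaks were found less often on the regions without H3K27ac than on the other Sox2 regions. The Klf4 lists are weak: 99.8% of the 6013 peaks of replicate 1 and 99.97% of the 5966 peaks of replicate 2 have a −log10 q of 0 in the authors' lists. A Klf4 peak of replicate 1 hit 1464 regions of the set (6.93%, interval 6.59 to 7.28%) and 1882 of the other regions (19.6%, 18.8 to 20.4%). For replicate 2 the counts were 1234 (5.84%, 5.53 to 6.16%) and 1663 (17.3%, 16.6 to 18.1%). Both replicates hit the same region in 396 cases of the set (1.87%, 1.70 to 2.07%) and in 831 of the other regions (8.66%, 8.10 to 9.24%). The class with H3K27ac on both days had the highest share hit by both, 14.5%. Day 2 only stood at 6.29% and day 0 only at 5.74%. By replicates 1 and 2 alone these classes stood at 28.97% and 24.8%, 15.8% and 14.2%, and 14.9% and 13.9%. At the edge of the rule the difference was smaller. Klf4 replicates 1 and 2 hit 13.95% and 10.6% of the set's regions with a day 2 peak under 50 bp away. They hit 14.7% and 13.1% of the day 2 only regions whose overlap was 50 bp or less. The set's regions at least 500 bp from a day 2 peak stood at 5.61% and 4.86%. In the set 18833 regions (89.1%) had no Klf4 peak from either replicate. The 2 Klf4 replicates gave the same order of the classes, but there was no test between them, since regions of the same libraries are not replicates.

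The lower Klf4 share was not limited to regions of weak Sox2 enrichment. In each of the 10 bins of Sox2 fold, the share hit by Klf4 was lower in the set than in the other regions, for both replicates. For replicate 1 it ranged from 3.45 to 16.6% in the set and from 13.3 to 28.1% in the other regions. For replicate 2 the ranges were 2.29 to 14.04% and 10.8 to 25.1%. Region width was not held equal, with medians of 379 bp in the set and 428 bp in the other regions. A wider region can more easily share a base with a peak, and the part of width was not tested. Of the 1250 Klf4 regions found in both replicates, 295 (23.6%) lay on regions of the set and 664 (53.1%) on other Sox2 regions.

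Within the set, Klf4 peaks were more frequent where a day 2 H3K27ac peak was near. Klf4 replicate 1 hit 12.9% of the regions with a gap under 0.5 kb, 6.35% of those at 0.5 to 5 kb, 6.33% at 5 to 50 kb and 4.70% at 50 kb or more. For replicate 2 the shares were 10.3%, 6.35%, 5.35% and 4.00%. The bin under 0.5 kb was thus the highest, with little difference between the bins from 0.5 to 50 kb. As 500 bp was a chosen bin edge, these bins do not locate the distance at which the share changes. Regions flanked on both sides had 17.4% by replicate 1 and 14.2% by replicate 2, and regions flanked on 1 side 11.5% and 9.04%. Regions beside a day 2 peak had higher Klf4 shares than the rest of the set in 10 of 10 bins of Sox2 fold, for each Klf4 replicate. For day 0 peaks the bin under 0.5 kb was not the highest. Its 554 regions had 6.68% (interval 4.75 to 9.09%) by replicate 1 and 6.14% (4.29 to 8.47%) by replicate 2. Regions at 0.5 to 5 kb from a day 0 peak had 8.14% and 6.62%. Those at 5 to 50 kb had 7.66% and 6.42%, and those at 50 kb or more 5.32% and 4.61%.

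**Figure D4:**
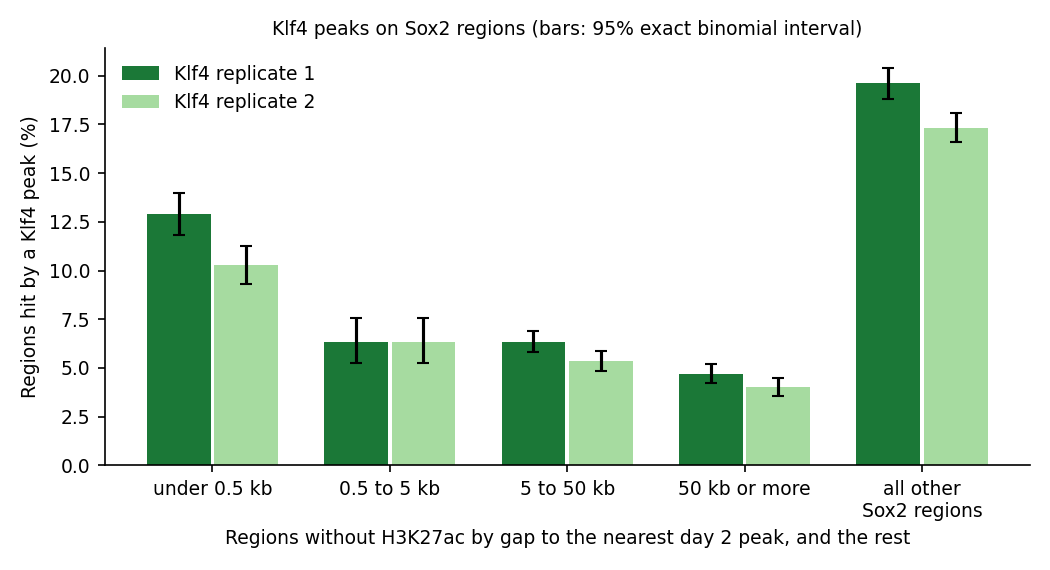
Share of regions hit by a Klf4 peak (vertical axis, %) of replicate 1 and replicate 2, with 95% exact binomial intervals as bars, for Sox2 regions without H3K27ac in 4 bins of the gap to the nearest day 2 H3K27ac peak and for all other Sox2 regions. Within the set the bin under 0.5 kb stands highest, at 12.9% and 10.3%, and all bins stand below the other regions, at 19.6% and 17.3%.

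The 396 regions of the set with Klf4 peaks from both replicates had stronger Sox2 enrichment than the regions with none. Their median Sox2 folds were 6.26 and 6.56, against 5.11 and 5.74 for the 18833 regions without a Klf4 peak. A day 2 H3K27ac peak lay within 500 bp of 149 of them (37.6%), against 16.4% of the regions without Klf4. The Sox2 and Klf4 summits were a median of 68.5 bp apart in replicate 1 and 69 bp in replicate 2, and within 100 bp of each other in 64.4% and 65.2%. The choice of these regions limits this distance, since each Klf4 peak had to overlap a narrow Sox2 region. How close summits would lie without a shared site was not tested. Of the 396, 4 had a Klf4 −log10 q above 0 in either replicate. Given the antibody label above, peaks at the same place cannot be told apart from a shared antibody.

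The strongest regions of the set show how varied their surroundings were. The region of highest mean Sox2 fold, chr5:8488800-8489386 (mm9), had folds of 10.1 and 14.7 in replicates 1 and 2, lay 47.2 kb from the nearest day 2 peak and 64.3 kb from the nearest day 0 peak, and had no Klf4 peak. By contrast, chr6:146803750-146804160, with Sox2 folds of 12.3 and 11.9, ended 37 bp from a day 2 peak, while the nearest day 0 peak was 28.8 kb away. Klf4 peaks of both replicates hit it, with folds of 4.35 and 3.36. At chr12:67371776-67372333 the Sox2 folds were 10.9 and 13.3, a day 2 peak lay 82 bp away, and the nearest day 0 peak 1077 kb away. This region thus had the mark next to it on day 2 and none for a long way around it on day 0. At chr10:20810650-20811122, with folds of 11.7 and 11.6, the nearest peaks were 138 kb away on day 2 and 53.8 kb away on day 0, and Klf4 peaks of both replicates were present, with folds of 2.82 and 2.83. Among the 10 regions of highest Sox2 fold, replicate 1 ranged from 8.82 to 12.3 and replicate 2 from 11.6 to 14.9. Of these 10, 3 lay within 500 bp of a day 2 peak, 2 lay beyond 50 kb from peaks of both days, and 2 had Klf4 peaks of both replicates.

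The 10 regions of highest Klf4 fold were taken from the 396 regions of the set hit by both Klf4 replicates. At chr13:19682948-19683262 the Klf4 folds were 4.84 and 6.43, the Sox2 folds 4.60 and 5.55, and the nearest H3K27ac peaks 27.7 kb away on day 2 and 27.6 kb away on day 0. At chr17:57097241-57097817 the Klf4 folds were 6.32 and 4.03, with Sox2 folds of 9.71 and 9.80. Its nearest H3K27ac peaks were 22.3 kb away on day 2 and 21.9 kb away on day 0. The authors' −log10 q of its Klf4 peaks was 0.920 in replicate 1 and 0 in replicate 2. At chr10:38710696-38711101, with Klf4 folds of 5.97 and 4.03, the mark was near on day 0 but not on day 2: the nearest day 2 peak was 99.7 kb away and the nearest day 0 peak 889 bp away. At chr5:115190490-115190837, with Klf4 folds of 5.27 and 3.13, it was nearest on day 2, at 60 bp, against 1506 bp on day 0. Of the 10 regions of highest Klf4 fold, 1 lay within 500 bp of a day 2 peak and none lay beyond 50 kb from the peaks of both days.

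A group of 4544 regions (21.5%) lay at least 50 kb from any H3K27ac peak of either day. Their median Sox2 folds were 4.98 and 5.78, close to those of the whole set, and Klf4 hit 4.45% of them by replicate 1, 3.81% by replicate 2 and 1.06% by both. They lay on every chromosome, with shares of the chromosome's regions between 16.3% on chromosome 13 and 27.7% on chromosome 14 among the autosomes, and 32.5% on the X chromosome. The farthest, chr8:101773962-101774803, had Sox2 folds of 6.10 and 5.49 and lay 3.20 Mb from the nearest day 2 peak and 2.52 Mb from the nearest day 0 peak. Sox2 peaks in both replicates were thus also found deep within stretches with no H3K27ac peak.

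Regions without H3K27ac stood more apart than the other Sox2 regions. The nearest other Sox2 region of any class was a median of 21.7 kb away for the set and 12.8 kb away for the other regions, and lay within 10 kb for 28.5% of the set, against 44.1% of the other regions. The distance to the nearest region without H3K27ac was nearly equal, 30.8 kb for the set and 29.9 kb for the other regions. Of the windows of 1 Mb, 2350 held at least 1 region of the set, with a median of 9 and a maximum of 27, and 300 windows held 15 or more. The densest window, on chromosome 18, held 27 regions of the set among 32 Sox2 regions. It also held 24 day 2 and 39 day 0 H3K27ac peaks, so a crowd of such regions was not a stretch without the mark. The next were chr1:55000001-56000000 with 25 of 30 Sox2 regions, beside 21 day 2 and 33 day 0 peaks, and chr9:83000001-84000000 with 24 of 32, beside 30 day 2 and 31 day 0 peaks. In these 3 windows, 4, 3 and 4 of the regions lay within 500 bp of a day 2 peak.

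On the X chromosome nearly all Sox2 regions were without H3K27ac. There were 175 Sox2 regions on it, of which 160 belonged to the set (91.4%, interval 86.3 to 95.1%), 6 had the mark on day 2 only, 1 on both days and 8 on day 0 only. On the 19 autosomes 20975 of 30560 regions belonged to the set (68.6%), with shares between 63.0% on chromosome 7 and 74.5% on chromosome 14. The X regions had lower Sox2 folds, with medians of 4.50 and 5.12, against 5.14 and 5.78 for the set's regions on autosomes. Sox2 peaks on the X were few, at 0.695% and 1.20% of the peaks of the Sox2 replicates, against 1.88% of day 2 and 1.99% of day 0 H3K27ac peaks. Of the 160, 43 (26.9%) lay within 500 bp of a day 2 peak, against 15.5 to 22.7% on single autosomes. If regions within 1 kb of any H3K27ac peak are left out as well, 64.0% of the X regions remain in the set, against 53.7% of all Sox2 regions. The copy number of the X in these cells and its part in the counts were not tested.

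**Figure D5:**
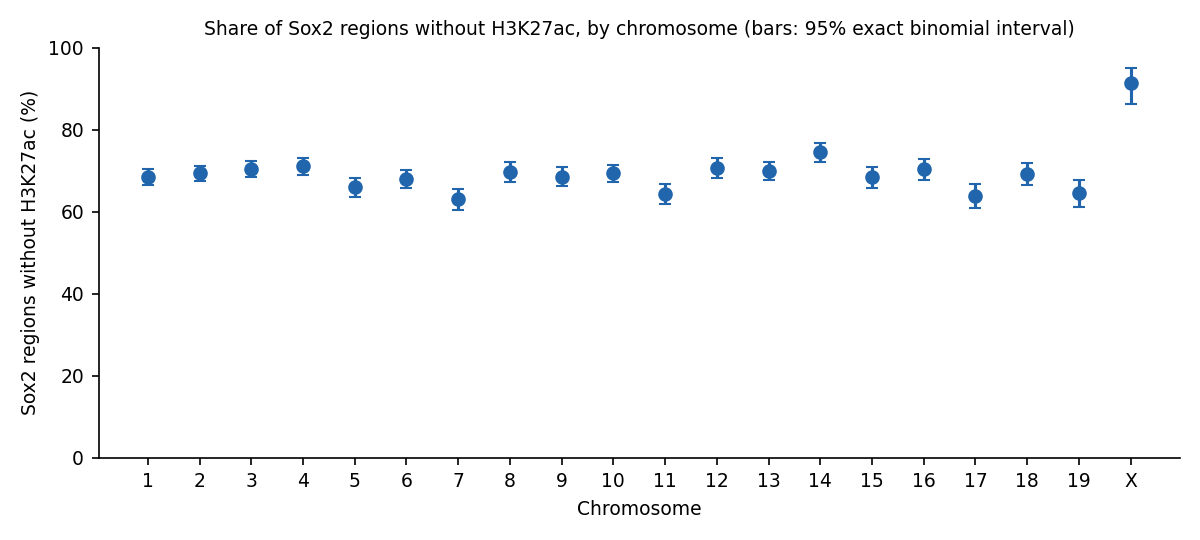
Share of the Sox2 regions of each chromosome that carried no H3K27ac peak on either day (vertical axis, %), with 95% exact binomial intervals as bars. The autosomes lie between 63.0 and 74.5%, and the X chromosome, with 175 regions, stands at 91.4%.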

How the data were processed

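The members and lists were chosen with earlier results of these data known. Per the submitters' processing notes, base calling used CASAVA 1.8.4, ChIP-seq reads were aligned with Bowtie2 to mm9 and peaks were called with MACS2, and STAR 2.5.1b mapped the reads of the RNA libraries. The deposited peak lists give, per peak, the authors' fold enrichment (a ratio over local background) and their −log10 p and −log10 q values. They hold no read counts, so the depth of the ChIP libraries is unknown. The RNA table, as deposited by the authors, holds counts per gene, with library totals of 18501539 and 20102260 for day 2 and 19217668 and 19713839 for day 0. These were divided by the totals to give CPM.

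Peaks on unplaced sequence (10 to 35 per list) were left out. Overlap meant at least 1 shared bp, the gap is the number of bases between a region and the nearest peak, and a region took the highest fold of its peaks in each replicate. Shares have exact Clopper-Pearson 95% intervals. No test was made between classes, since there is 1 H3K27ac sample per day and 2 samples per factor, and regions of the same libraries are not replicates. The labels do not say whether replicates came from separate cultures. Regions named are among the 10 of highest mean Sox2 fold, the 10 of highest Klf4 fold among those hit by both Klf4 replicates and the 5 windows of 1 Mb with most members, where 8 windows held 23 or more. The region farthest from H3K27ac was added after its values were seen. Overlap, merging and gap steps were tested on simulated data. The work used Python 3.11.15 with pandas 2.3.3 and numpy 2.4.6, intervals came from scipy 1.17.1, and plots from matplotlib 3.10.9. Gene starts, motifs, sequences and nearby genes were planned but not analysed here, since no mm9 genome or annotation was used. The 5 input samples and the NPC table were not used here.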

Additional observations from a re-analysis of the deposited data

How the results depend on the processing

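The alternatives for the Klf4 share were planned, apart from the stricter q and the held day 0 list. These settings, and all alternatives for the number of regions and the gaps, were chosen after seeing the data. The stricter q applied to Sox2 and H3K27ac peaks only. The number of regions without H3K27ac, 21135, was 28667 to 36910 with either Sox2 replicate left out, 36910 being without replicate 1. It was 11654 with Sox2 and H3K27ac peaks held to a −log10 q of at least 5, and stayed within 1.5 times with an overlap of at least 50% of the shorter interval (25952), a distance of 1 kb to any H3K27ac peak (16502) or the day 0 list held to the size of the day 2 list (21418). The share hit by both Klf4 replicates, 1.87%, was 1.25 to 6.93% with a Klf4 or Sox2 replicate left out, where leaving out Klf4 replicate 1 or 2 gave 5.84% and 6.93%, as a single Klf4 replicate then suffices. It was 10.9% for either Klf4 replicate, 2.93% with the 50% overlap and 1.43% at 1 kb. With the stricter q for Sox2 and H3K27ac peaks, and the Klf4 peaks as deposited, it was 3.04%. In all 9 alternatives run for the Klf4 share, it was lower than in the other Sox2 regions. The share within 500 bp of a day 2 peak, 18.1%, was 15.9 to 19.4% with a Sox2 replicate left out, 33.0% with the 50% overlap, 10.02% with the stricter q, and 16.3% and 19.2% with borders of 200 and 1000 bp. The same share for day 0, 2.62%, was 2.85 to 3.06%, 6.53%, 1.92%, and 1.32% and 4.67%, and 1.97% with the held list. The day 2 share was the higher in each of these settings; at 1 kb both are 0 by construction. With the 50% overlap, a peak that touched a region of the set without meeting that overlap counted as lying within 500 bp. The 33.0% and 6.53% therefore include touched regions. Otherwise, the cause of these shifts was not tested. The share of X chromosome regions was 88.2 to 95.9%, but 64.0% at 1 kb. No paired analysis was possible because no test was made over samples. Not run were Klf4 peaks at a −log10 q of 5, which none reaches, and the alternatives on gene starts, motifs and nearby genes. Peak lists without read counts leave depth unknown, so a region without a called H3K27ac peak may still hold reads of the mark.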

Other observations

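Sox2 regions seen in only 1 replicate were more often without H3K27ac than those seen in both. Of 8548 regions in replicate 1 only, 73.9% had no H3K27ac peak on either day, and of 18219 in replicate 2 only, 81.6%, against 68.8% of the 30735 regions in both. Those without H3K27ac were less often beside a day 2 peak, with 10.3% (replicate 1 only) and 8.53% (replicate 2 only) within 500 bp, against 18.1% for regions in both replicates. For day 0 peaks the shares were 3.50%, 2.84% and 2.62%. A region in both replicates joins peaks of each, so it can be wider and more easily share a base with an H3K27ac peak. Width was not held equal here, and no test of these differences was made.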
